A study of Mus musculus with 2 samples.

Results

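Spp1-rich hepatocytes without biliary markers were barcodes that passed a hepatocyte gate, carried at least 5 Spp1 UMIs (unique molecular identifiers, 1 per captured transcript molecule) per 10000 UMIs, and held 0 UMIs of the bile duct genes Epcam, Krt7 and Krt19. The gate required at least 5000 UMIs, at most 25% of UMIs from mitochondrial (mt-) genes, at most 1 UMI of the leukocyte gene Ptprc, fewer than 5 Glul UMIs per 10000, and at least 5% of UMIs from 10 hepatocyte secretory and lipid-binding genes (Apoa1, Apoa2, Apoc3, Ttr, Serpina1c, Trf, Fgb, Ahsg, Hp and Fabp1). The members were thus chosen by measured values of these cells, above all by Spp1 itself, and none of the gate's genes is a finding here. Of 32316 barcodes, 124 met the rule: 115 of 17313 with barcode suffix 1 and 9 of 15003 with suffix 2. They were 18.6% of the 619 gate cells of suffix 1 (exact binomial 95% interval 15.6 to 21.9%) and 1.74% of the 516 of suffix 2 (0.801 to 3.29%). Intervals here and below cover counting error only. Each was compared, within its own suffix, with gate cells holding at most 1 Spp1 UMI (177 and 458 cells), and 327 and 49 cells lay between.

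The series profiled liver cells of mice fed a 40% HFCFD, in which fat, fructose and cholesterol are all high, for 2 weeks, with 1 sample labelled Cebp KO and 1 labelled Cebp WT. The study deleted floxed Cebpa, which encodes the transcription factor C/EBPα, with Albumin-cre or its inducible form Albumin-ERT2-cre. It describes the deletion as specific to hepatocytes, and whether other liver cells kept the gene was not tested here. The labels do not say which of both was used here. The study used male mice, backcrossed to C57BL/6N. Their ages, and whether a sample came from 1 animal, were not given in the sources used here. Cells were dispersed by perfusion and digestion, purified on Percoll and loaded on a 10x Chromium 3'-end kit. Both samples were deposited in 1 matrix, and no label tied a suffix to a genotype, so both libraries stay unassigned and no genotype was compared. With 1 library each and cells that are not replicates, no test was made: genes are described by the ratio of their summed counts (CPM, UMIs of a gene per 1000000 UMIs of the set), with exact Poisson 95% intervals of levels and an exact conditional interval of ratios.

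Spp1 encodes osteopontin, a secreted, phosphorylated glycoprotein that binds integrins and the hyaluronan receptor CD44. In healthy liver its main epithelial source is the cholangiocyte, the cell lining bile ducts, whereas hepatocytes carry little; osteopontin is known for its part in wound repair, leukocyte recruitment and fibrosis. Bile duct cells and hepatocytes descend from a common embryonic progenitor, and genes such as Sox9, Hes1 and Krt7 mark the biliary side of that choice. In the GRCm38 annotation (mm10, GENCODE vM21), Spp1 lies on chromosome 5 from 104435118 to 104441050 on the plus strand. The gene model Gm42793 overlaps it on the same strand.

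All 7 listed hepatocyte markers were detected in the members of both libraries. Of these 7, 0 were at least 2 times higher and 1, Cps1, was lower between deep cells of suffix 1 (ratio 0.49), and 0 were past 2 times in suffix 2. In members at 20 or more Spp1 UMIs per 10000, set against deep middle cells of suffix 1, 2 of the 7 were lower, Cps1 and Tat, a tyrosine aminotransferase. Alb, the plasma albumin gene, which the gate did not use, stood at 40949.5 CPM in the members of suffix 1 and at 44010.3 CPM in those of suffix 2. It was detected in every member, with at least 52 UMIs in each member of suffix 1. In 45 biliary reference barcodes of suffix 1 (at least 3 UMIs of Epcam, Krt7 and Krt19 together, under 5% of the gate's hepatocyte genes, at least 1000 UMIs), Alb stood at 10553 CPM. Hnf4a, the nuclear receptor that maintains hepatocyte identity, was at 214 CPM in members at 5 to 10 Spp1 UMIs per 10000, 257 CPM at 20 or more and 208 CPM in deep middle cells of suffix 1. Ttr and Apoa1, also on the list, are gate genes.

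Spp1 chose the members, so its levels are a description. In suffix 1 its distribution ran through the limit without a gap: 41 gate cells lay at 4 to 5 Spp1 UMIs per 10000 and 25 at 5 to 6. The 3 members nearest the limit had 5.03, 5.05 and 5.09, and the 3 cells just outside had 4.996, 4.98 and 4.97 per 10000. In suffix 2 the 3 lowest members had 6.0, 9.21 and 9.62, and the 3 cells just outside had 4.64, 3.86 and 3.42. In suffix 1 the set is therefore a range of a continuous measure and not a separate class; in suffix 2, cells near the limit were too few to tell, with 1 at 4 to 5 and 1 at 5 to 6.

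Above the limit the range was wide. In suffix 1 it ran from 5.03 to 297 per 10000: 80 members lay at 5 to 10, 20 at 10 to 20 and 15 at 20 or more. In suffix 2 it ran from 6.0 to 35.6, with 3 members in each range. The 15 highest members of suffix 1 held 67.3% of all members' Spp1 UMIs, and 1 cell, with 1469 UMIs, held 20.5%. Members made up 76.9% of the Spp1 UMIs of the suffix 1 gate and 20.5% of those of all its barcodes (54.0% and 6.62% in suffix 2).

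**Figure D1:**
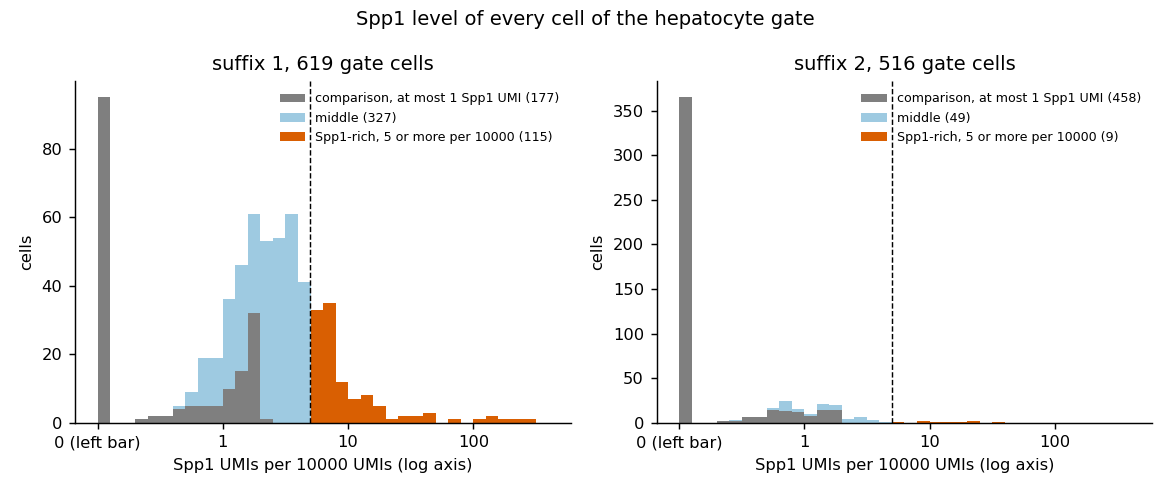
Histograms of Spp1 UMIs per 10000 UMIs (log axis, 0 in the left bar) over the 619 gate cells of suffix 1 and the 516 of suffix 2, coloured by set, with the limit of 5 as a dashed line. In suffix 1 the distribution passes the limit without a gap and 15 cells trail out from 20 to 297; in suffix 2 most cells have 0 and 9 lie above the limit.

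Barcodes outside the hepatocyte gate held UMIs of Spp1 too, and whether their own cells expressed it was not tested. Lymphoid barcodes (at least 3 Ptprc UMIs, at least 3 UMIs of T, NK and B cell markers and more of them than of macrophage markers) were at 556 CPM of Spp1 in suffix 1 (95% interval 532 to 581, 418 barcodes, 2020 UMIs) and 9.82 CPM in suffix 2 (6.47 to 14.3, 300 barcodes, 27 UMIs). The suffix 1 value rested on 8 barcodes at 5 or more per 10000: the other 410 held 222 of its UMIs, at 63.9 CPM (55.8 to 72.9). Middle cells with at least 10000 UMIs and at least 8% mitochondrial UMIs were at 244 CPM (234 to 255) and 145 CPM (122 to 172). In suffix 1 that is below the level of all lymphoid barcodes and above that of the 410. Comparison cells of the same depth were at 24.3 and 9.65 CPM. No order is read from these levels, since the number of Spp1 UMIs defined the middle, the comparison cells and the 410 barcodes.

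In all 418 lymphoid barcodes of suffix 1 a Spp1 UMI was present in 41.4%, at a median depth of 7258.5 UMIs, and in 28.5% (24.2 to 33.1%) after thinning each to 5000 UMIs. In suffix 2 the shares were 7.67% and 5%. Among lymphoid barcodes, 8 of 418 in suffix 1 (1.91%) and 0 of 300 in suffix 2 (up to 1.22% by the exact interval) reached the limit of 5 per 10000, against 18.6% and 1.74% of gate cells. The intervals of both shares overlap in suffix 2.

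Depth and mitochondrial share moved with the grouping in suffix 1. Members there had a median of 29243 UMIs and 15% mitochondrial UMIs, whereas comparison cells had 6593 UMIs and 1.12%, and 68.9% of them lay under 8%. In suffix 2 the medians were 22190 UMIs and 14.7% against 11613.5 UMIs and 15.3%. A ceiling of 1 Spp1 UMI admits shallow cells more readily than deep ones. Every comparison was therefore also made between deep cells of both sets (at least 10000 UMIs and 8% mitochondrial UMIs, limits chosen after seeing the data), with 100 against 33 cells and 7 against 214. Depth stayed unequal there, with medians of 30813 and 19807 UMIs in suffix 1 and 22797 and 19181 in suffix 2. With comparison cells matched to members on depth instead, 147 genes of suffix 1 were at least 2 times higher and 89 lower.

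**Figure D2:**
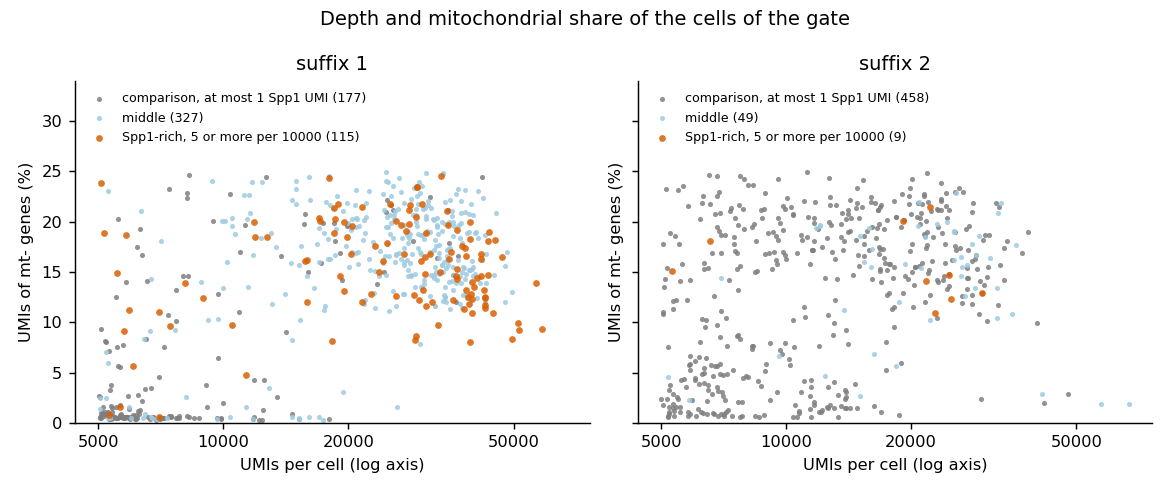
UMIs per cell (log axis) against the percentage of UMIs from mitochondrial genes for each gate cell of both libraries, coloured by set. In suffix 1 most comparison cells lie at the lower left, around 6593 UMIs and 1.12%, and most members at the upper right; in suffix 2 the comparison cells spread over both areas.

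Between deep cells of suffix 1, 187 of 4933 genes with at least 20 CPM were at least 2 times higher in members (3.79%) and 87 at least 2 times lower (1.76%). Against all comparison cells the counts were 258 (5.12%) and 213 (4.23%) of 5039 genes. In suffix 2, 709 of 5085 genes (13.9%) were higher and 313 (6.16%) lower between deep cells, and 785 (15.1%) and 334 (6.42%) of 5200 against all comparison cells. The suffix 2 counts rest on 9 cells with 176936 UMIs in all, where 20 CPM is under 4 UMIs. A gene could pass the minimum through 1 of both sets alone, and then had to be higher in that set, so the counts over gene lists below are descriptions and support nothing by themselves. The median log2 ratio of the genes compared was 0.09 in suffix 1 and 0.19 in suffix 2 between deep cells.

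Spink1 stood out in both libraries. It encodes a secreted Kazal-type trypsin inhibitor that is expressed in pancreas and is raised in injured and tumorous liver. Its level in suffix 1 was 36.4 CPM in deep comparison cells, 85.4 CPM in deep middle cells, 180 CPM (95% interval 163 to 200) at 5 to 10 Spp1 UMIs per 10000, 406 CPM (358 to 458) at 10 to 20 and 903 CPM (823 to 989) at 20 or more. The last value is above the 230 CPM of the biliary barcodes. Among the 15 highest members, 14 held Spink1, with 66 UMIs in the cell with most, so no single cell carried the value. In suffix 2 it was at 113 CPM (69.0 to 175) in members and at 7.999 CPM in deep comparison cells. Those 20 UMIs lay in 4 of 9 members: the 3 highest in Spp1 held 7, 4 and 7, and 1 other held 2.

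After thinning to 5000 UMIs, Spink1 was left in 53.9% of members of suffix 1 (44.4 to 63.2%), 27.1% of deep middle cells, 18.2% of deep comparison cells and 6.46% of lymphoid barcodes. Without thinning the shares were 80.9%, 58.5%, 36.4% and 8.85%. Lymphoid barcodes held 38.5 CPM of Spink1, about the level of comparison cells, and 46 of their 140 UMIs were in 1 barcode. The ratio between deep cells was 9.43 in suffix 1 and 15.1 in suffix 2. These were the highest ratios among the 38 named genes in both libraries.

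Several further genes that the naming rule ranked highest had ratios over 2 in both libraries. Tm4sf4, a tetraspan membrane protein of liver and gut epithelium, was at 216 CPM in members of suffix 1 and 67.4 CPM in deep comparison cells; in suffix 2 the levels were 514 and 112 CPM. Alcam, an adhesion molecule of the immunoglobulin family, had ratios between deep cells of 2.54 and 2.41. Shroom3, an actin-binding protein of epithelial folding, had ratios of 3.52 and 4.62, and Nav2, a microtubule-associated protein, 3.48 and 5.77. The lincRNA Gm42031 (ratios 3.25 and 5.61), the interferon-inducible Ifi27l2b (4.02 and 4.07) and the mitochondrial aldehyde dehydrogenase Aldh1b1 (2.83 and 3.74) followed them. Single cells carried part of the suffix 2 values: without the cell with most UMIs in each set, the ratio there was 1.25 for Alcam, with 25 of 51 UMIs in 1 cell, and 1.43 for Ifi27l2b, with 6 of 9 UMIs in 1 cell. The other 5 genes kept ratios from 2.99 to 4.02.

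A further group had weaker or less even ratios. Neat1, the RNA that scaffolds nuclear paraspeckles, was at 381 CPM in deep members of suffix 1 and 197 CPM in deep comparison cells (ratio 1.93, and 2.98 in suffix 2). Rtn4, an endoplasmic reticulum shaping protein, had ratios of 1.88 and 2.604, and Iyd, an iodotyrosine deiodinase, 1.60 and 2.35. Without the cell with most UMIs in each set, these 3 were at 1.90, 1.71 and 1.82 in suffix 2. Fhit, Mob3b and Ptprk lay between 1.28 and 1.45 in suffix 1 and between 2.47 and 2.92 in suffix 2. Arhgap6, the muscarinic receptor Chrm3 and Rad51b, a DNA repair gene, were named for suffix 2, with ratios of 7.55, 6.26 and 13.5 there and of 5.17, 1.94 and 6.57 in suffix 1. Without the cell with most UMIs in each set, their suffix 2 ratios were 5.30, 4.37 and 7.36. Of the 32 Rad51b UMIs in members there, 18 lay in 1 cell. In suffix 1, however, Arhgap6 and Rad51b were at 4.04 CPM each in deep comparison cells, which is 3 UMIs. Members of suffix 1 were at 20.5 and 25.8 CPM and lymphoid barcodes at 50.4 and 50.7 CPM, so the members' levels there are not read as expression, and biliary barcodes held 487 CPM of Arhgap6. Gm36264 and Plcb1, a phospholipase C gene, were higher in suffix 1 (2.65 and 1.83) and near 1 in suffix 2 (1.02 and 1.08).

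**Figure D3:**
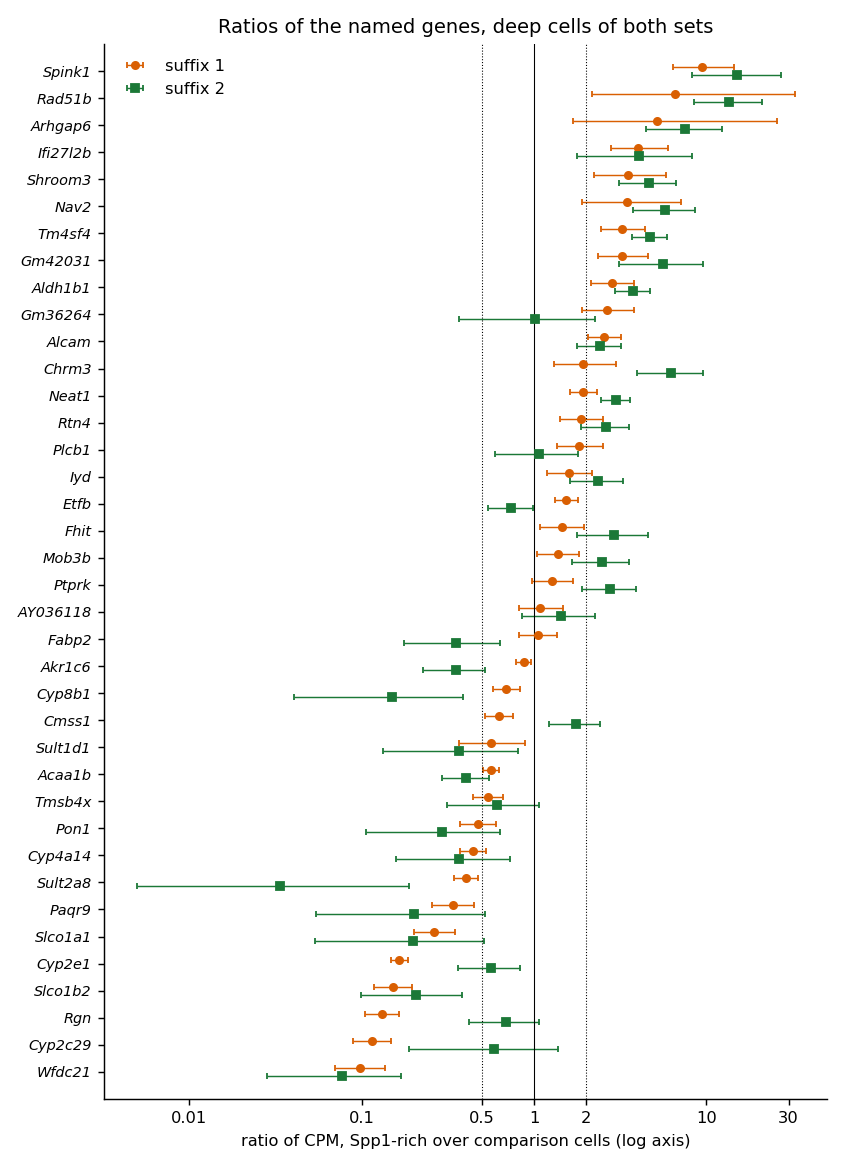
Ratio of CPM in members over comparison cells (log axis, deep cells of both sets) for the 38 genes of the naming rule, with exact 95% counting intervals, suffix 1 as circles and suffix 2 as squares. Spink1 lies at the top with 9.43 and 15.1 and Wfdc21 is low in both with 0.10 and 0.08; Sult2a8 is lowest in suffix 2 with 0.0336; Fabp2, Cmss1 and Etfb lie on different sides of 1 in the 2 libraries.

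Keratin and injury-associated genes were partly higher. Of 22 genes associated with fetal or injured hepatocytes, 6 were measured above the minimum between deep cells in each library. In suffix 1, Spink1, Krt18 and Tff3 were at least 2 times higher and none lower, where 3.79% and 1.76% of all genes were. In suffix 2, Spink1, Krt18, Krt8 and Anxa5 were higher and Tff3, a mucin-associated trefoil peptide, was lower (17.0 against 52.7 CPM). There, 13.9% of all genes were higher and 6.16% lower. Spink1 of suffix 2 passed through members alone. Tff3 of suffix 2 passed through comparison cells alone, with 3 UMIs in the 9 members, and its ratio was above 1 under some settings given at the end. The median log2 ratio of the list was 1.14 and 1.32. Krt18, the type I keratin of simple epithelia, was at 481 CPM in the 15 highest members, 123 CPM in deep middle cells and 87.6 CPM in deep comparison cells. Against all comparison cells of suffix 1 this pattern did not hold for the keratins: those shallow cells held 217 CPM of Krt18.

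The fetal genes proper were near 0. Afp was at or under 1.55 CPM in every range of suffix 1, and Igf2 and Dlk1 held 0 UMIs in all members. H19, an imprinted non-coding RNA of fetal liver on chromosome 7 from 142575529 to 142578143, was the exception and lay in a few cells. In suffix 1, 7 of 115 members held it, with 1, 5, 7, 6, 166, 57 and 1 UMIs in order of rising Spp1. In suffix 2, 41 UMIs lay in 1 of 9 members, which was the one with the highest Spp1. Deep comparison cells held 0 H19 UMIs in 33 and in 214 cells, and the biliary barcodes of suffix 1 were at 39.1 CPM in 2 of 45 barcodes.

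Some bile duct genes that the rule did not use were highest at the top of the Spp1 range in suffix 1. Pkhd1, which encodes fibrocystin of the primary cilium, was at 22.9 CPM in deep comparison cells of suffix 1, 32.9 CPM at 5 to 10 Spp1 UMIs per 10000, 46.6 CPM at 10 to 20 and 182 CPM (147 to 222) at 20 or more. Bicc1, an RNA-binding protein that is also linked to cystic disease, held 0 UMIs in deep comparison cells, 1.90 CPM at 5 to 10, 10.9 CPM at 10 to 20 and 114 CPM (86.8 to 147) at 20 or more. Both had a step at the top range, larger than their counting intervals. Lymphoid barcodes held 16.8 CPM of Pkhd1 and 21.2 CPM of Bicc1, the latter in 4 of 418 barcodes with up to 51 UMIs.

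Sox9, the transcription factor of bile duct fate, was at 10.8 CPM in deep comparison cells. It was at 5.71, 9.32 and 58.0 CPM (39.1 to 82.8) in the 3 ranges, and Sox4, a related factor, at 0.476, 7.77 and 32.9 CPM. Deep middle cells were at 6.19 CPM of Sox9 and 0.619 CPM of Sox4, so of the 3 ranges only the top one was above deep comparison cells in Sox9. In suffix 2 its order differed: of 10 Sox9 UMIs, 9 lay in the 3 members at 5 to 10 (130 CPM), 0 at 10 to 20 and 1 at 20 or more. Pkhd1 had 2, 2 and 12 UMIs there and Bicc1 0, 0 and 2. In the top range, at full depth, a UMI was found in most cells for Bicc1 (10 of 15), Pkhd1 (13 of 15) and Sox9 (10 of 15) and not for Sox4 (4 of 15). After thinning to 5000 UMIs, Bicc1, Pkhd1 and Sox9 were each left in 4 of 15 cells. Of 11 cholangiocyte markers, 2 passed the minimum between deep cells of each library, Bicc1 and Pkhd1 in suffix 1 and Sox9 and Pkhd1 in suffix 2. All but Pkhd1 of suffix 1 (ratio 2.64) passed through members alone, so this count supports nothing. Without the cell with most UMIs in each set, the ratio of Sox9 in suffix 2 was 1.58. Without the cell with 1469 Spp1 UMIs, which alone held 25 Bicc1, 31 Pkhd1 and 13 Sox9 UMIs, the levels in the top range were 72.7 CPM of Bicc1, 135 CPM of Pkhd1 and 36.3 CPM of Sox9.

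Compared with biliary barcodes of the same library, the top range had very unequal levels. Spp1 reached 77.6% of the biliary level, Krt18 54.6%, Hes1 49.2%, Tm4sf4 38.9%, Sox9 20.6%, Pkhd1 19.8%, Clu 17.8% and Bicc1 12.4%. Cldn7, a tight junction claudin, was at 3.35% and Tspan8, an epithelial tetraspanin, at 1.65%, while Cftr, the chloride channel of the duct, and Anxa2 held 0 UMIs in the 15 cells. Cd24a, a duct and progenitor surface protein, reached 1.63% and Tmsb10 0.517%. The rule shaped these values, since it chose cells for high Spp1 and for 0 UMIs of 3 duct genes, and nothing is read from their inequality.

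**Figure D4:**
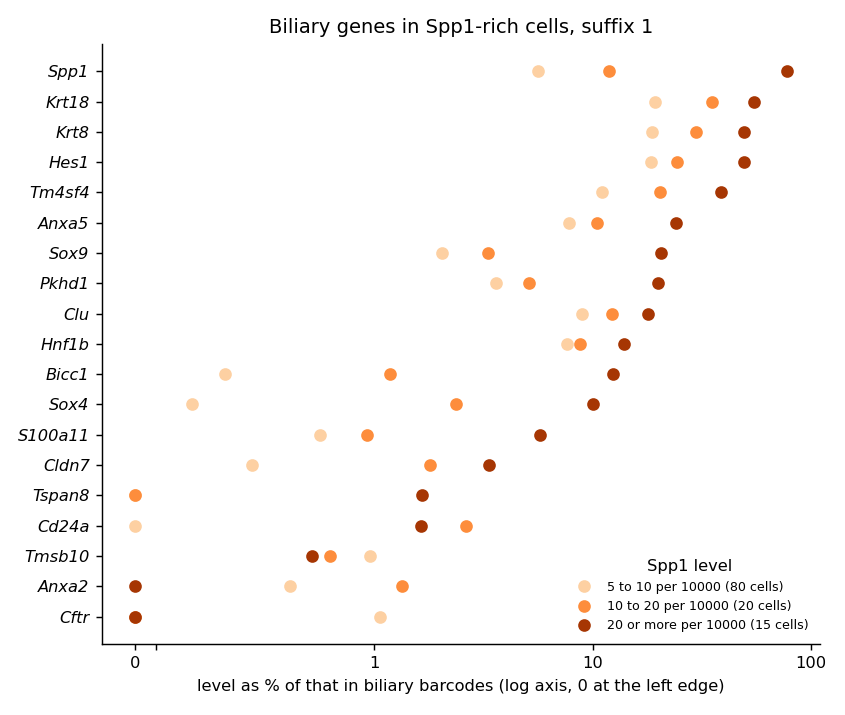
Level of 19 genes in the members of suffix 1 as a percentage of the level in 45 biliary barcodes of that library (log axis, 0 at the left edge), by Spp1 range. Spp1 reaches 77.6% and Bicc1 12.4% in the top range, whereas Cldn7, Tspan8, Cd24a, Tmsb10, Anxa2 and Cftr stay at or under 3.35%.

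The step that excluded Epcam, Krt7 and Krt19 removed mostly Spp1-rich barcodes. Before it, 15 of 130 Spp1-rich barcodes of suffix 1 (11.5%, 6.60 to 18.3%) held a UMI of these genes, against 1 of 505 other gate barcodes (0.198%). In suffix 2 the counts were 2 of 11 and 1 of 508. The 15 that were removed were at 23.9% of the biliary level of Bicc1, 22.6% of that of Cldn7 and 20.8% of that of Cd24a. Droplets with both a hepatocyte and bile duct RNA were not removed by a doublet caller, and their part in the levels above was not tested.

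Notch signalling sets bile duct fate in development, and Hes1 is its best known target. Hes1 was at 31.9, 42.0 and 85.1 CPM (61.8 to 114) in the 3 Spp1 ranges of suffix 1 and at 13.5 CPM in deep comparison cells, and in suffix 2 at 119 CPM (73.5 to 181) against 29.2 CPM. Apart from Spp1, 3 of the 15 genes on the Notch and biliary fate list passed the minimum in suffix 1, and 1 was at least 2 times higher. In suffix 2, 4 passed and 3 were higher (Hes1, Sox9 and Rbpj). Hes1 of suffix 1, and Sox9 and Rbpj of suffix 2, passed through members alone, and Rbpj was at a ratio of 0.94 without the cell with most UMIs in each set. Of 13 genes known as targets or partners of YAP and TEAD, only Tead1 passed, through members alone, and its ratio was 2.03 in suffix 1 and under 2 in suffix 2. The ligand Jag1 stayed near 0 in members, with 0 UMIs in suffix 2.

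Of 15 genes that mark hepatocytes near the central vein, 7 passed the minimum between deep cells and 5 were at least 2 times lower; in suffix 2, 2 of 6 were. Cyp1a2 and Lect2 of suffix 1, and both genes of suffix 2 (Cyp7a1 and Lect2), passed through comparison cells alone, so these counts support nothing. Cyp2e1, an ethanol- and toxicant-oxidising cytochrome, was at 977 CPM in deep comparison cells of suffix 1, 309 CPM in deep middle cells and 205, 117 and 87.0 CPM in the 3 ranges of members. The largest step thus lay between comparison and middle cells. Cyp1a2 (40.4 CPM in deep comparison cells, at most 4.29 CPM in the ranges) and the chemotactic protein gene Lect2 (28.3 CPM, at most 3.33 CPM) were ordered alike. In suffix 2, Cyp2e1 was at 164 CPM in members and 281 CPM in deep comparison cells, and the ratio between deep cells was 0.56 there and 0.17 in suffix 1. Lymphoid barcodes, which should lack Cyp2e1, held more of it than members, 297 CPM in suffix 1 and 353 CPM in suffix 2. After thinning to 5000 UMIs, a Cyp2e1 UMI was left in 75.6% of them and 50.4% of members in suffix 1, and in 81.3% and 44.4% in suffix 2. The members' level is therefore not read as expression, nor is that of comparison cells in suffix 2. Lymphoid barcodes of suffix 1 also held more Cyp1a2 (6.88 CPM) and Lect2 (7.71 CPM) than the ranges of members.

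Rgn, a calcium-binding lactonase of hepatocyte cytosol, and Cyp2c29 were also lower in suffix 1, with ratios between deep cells of 0.13 and 0.12, and 0.69 and 0.59 in suffix 2, where the intervals (0.42 to 1.07 and 0.19 to 1.39) include 1. Lymphoid barcodes held 128 and 78.9 CPM of Rgn and 61.9 and 68.4 CPM of Cyp2c29, against 47.8 and 113 CPM and 29.7 and 33.9 CPM in members. The gate kept Glul under 5 per 10000 on both sides, so it had already left out the cells next to the central vein.

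The genes that the naming rule ranked lowest, in 1 library or in both, included carriers and enzymes of hepatocytes. Slco1b2, which takes up organic anions and bile acids, was at 33.7 CPM in members of suffix 1 and 214 CPM in deep comparison cells; in suffix 2 it was at 62.2 and 293 CPM. Slco1a1, a related carrier, had ratios of 0.26 and 0.20. Sult2a8, a bile acid sulfotransferase, was at 149 and 352 CPM in suffix 1, and in suffix 2 it had 1 UMI in 9 members against 180 CPM. Wfdc21, a secreted small WAP-domain protein, had ratios between deep cells of 0.10 and 0.08. That was the lowest ratio of the named genes in suffix 1; in suffix 2 that of Sult2a8 was lower, 0.0336 (0.00085 to 0.188), and rests on its 1 UMI. Lymphoid barcodes held 46.8 and 128 CPM of Slco1b2 and 19.3 and 125 CPM of Wfdc21, at or above the members' levels in both libraries, so the members' levels of these genes are not read as expression.

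Further genes of metabolism were lower between deep cells. Between deep cells, Paqr9, a membrane receptor family gene, had ratios of 0.34 and 0.20, Pon1, the plasma paraoxonase, 0.47 and 0.29, Cyp4a14, a fatty acid omega-hydroxylase, 0.44 and 0.37, Acaa1b, a peroxisomal thiolase, 0.56 and 0.41, and Sult1d1 0.56 and 0.37. Cyp8b1, an enzyme of cholic acid synthesis, had ratios of 0.69 in suffix 1 and 0.15 in suffix 2; that difference was not tested. Against all comparison cells of suffix 1, Cyp8b1 was on the other side of 1, at 1.17 (1.01 to 1.37), and Cyp4a14 at 0.89 (0.76 to 1.05). Some genes named from the comparison with all cells depended on shallow cells. In suffix 1, AY036118, Cmss1, Etfb, Fabp2 and Akr1c6 had ratios of 0.22 to 0.41 against all comparison cells and of 0.63 to 1.54 between deep cells. Tmsb4x, an actin-sequestering peptide that immune barcodes hold at 10530.5 CPM, had ratios between deep cells of 0.54 and 0.61.

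Of 14 bile acid genes, 13 passed between deep cells, and 3 were at least 2 times lower and 0 higher in suffix 1. Over all genes compared there, 1.76% were lower and 3.79% higher, and in suffix 2 6.16% and 13.9%. In suffix 2, 5 of 13 bile acid genes were lower and 1 was higher, Abcb4, the canalicular phospholipid flippase (243 against 102 CPM). Among the 5 was Cyp7a1, the rate-limiting enzyme of bile acid synthesis (0 UMIs in 9 members, 44.0 CPM in deep comparison cells). Cyp7a1 passed through comparison cells alone and so had to be lower. Periportal genes had no common direction: of 16, 1 was higher and 1 lower in suffix 1, and 1 was higher and 0 lower in suffix 2. The lower one was Cps1, the mitochondrial entry enzyme of the urea cycle.

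Cps1 was lower in each step along the Spp1 range of suffix 1. It was at 1899 CPM in deep comparison cells, 1649 CPM in deep middle cells, 1216 CPM (1170 to 1265) at 5 to 10, 628 CPM (568 to 692) at 10 to 20 and 230 CPM (191 to 275) at 20 or more. Of the 119 UMIs in the top range, 47 were in 1 cell, and 2 of 15 cells had none. That level is close to the 219 CPM (204 to 235) of lymphoid barcodes. Alb, by contrast, was at 40294, 45489 and 37961 CPM in the same ranges and at 37429.5 CPM in deep comparison cells. In suffix 2, Cps1 was at 1311 CPM in members and 2050 CPM in deep comparison cells, and its 9 members held between 3 and 52 UMIs.

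**Figure D5:**
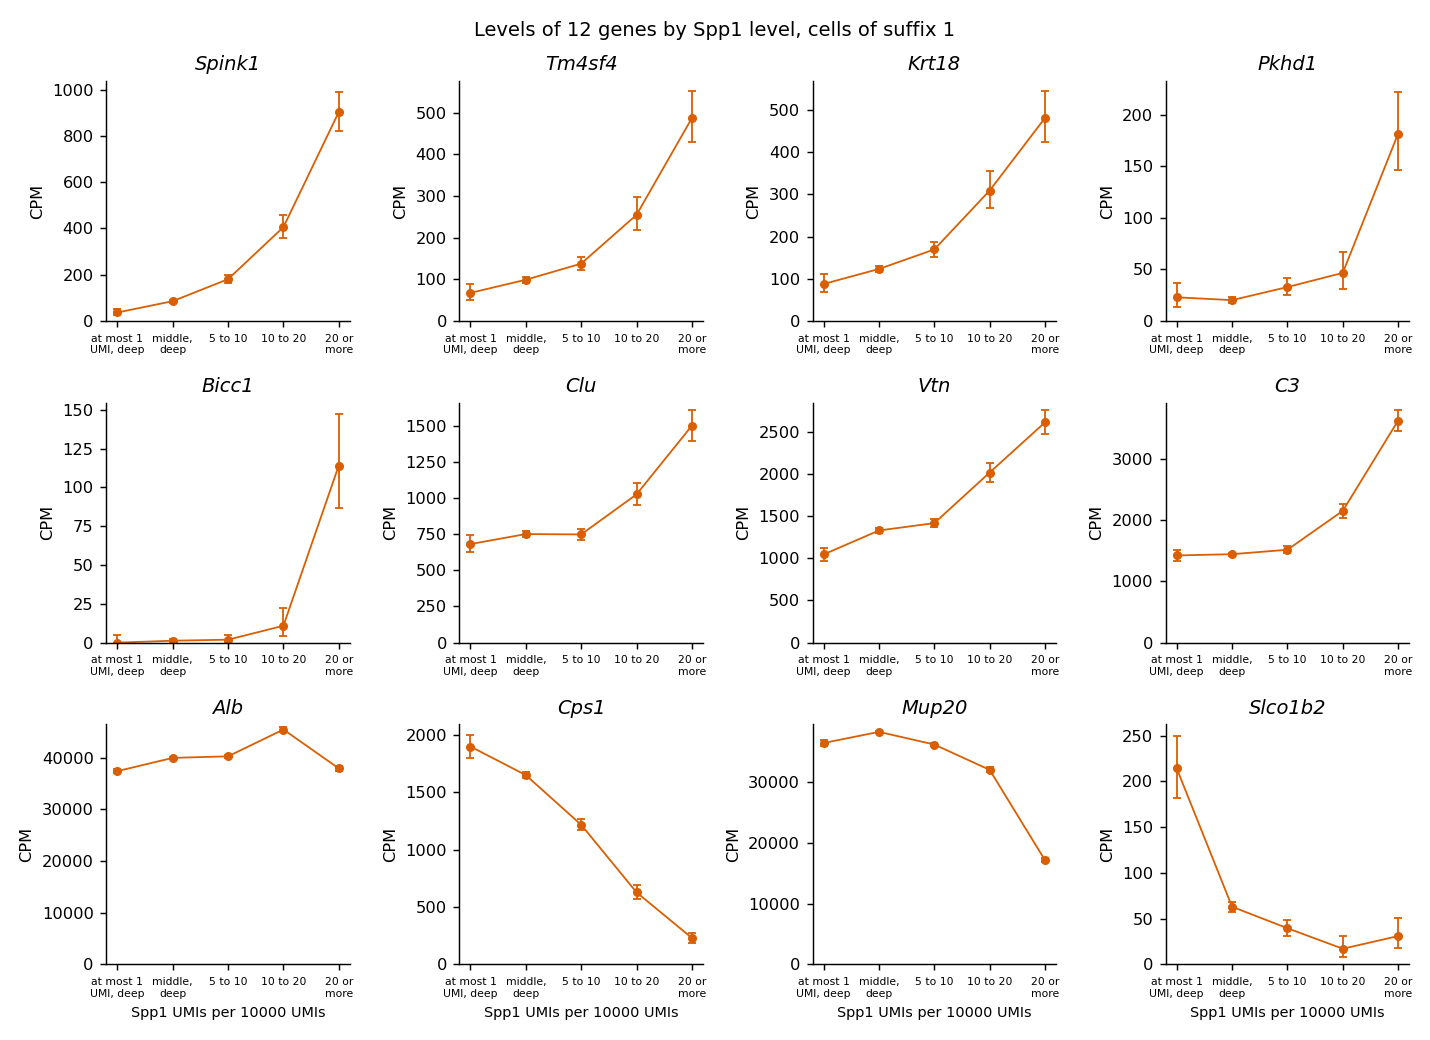
CPM of 12 genes in cells of suffix 1 ordered by Spp1 level (deep comparison cells, deep middle cells, and members at 5 to 10, 10 to 20 and 20 or more per 10000), with exact Poisson 95% intervals and axes from 0. Spink1, Tm4sf4, Krt18, Pkhd1, Bicc1, Clu, Vtn and C3 are highest in the last range, Cps1 and Mup20 lowest there, and Alb stays between 37429.5 and 45489 CPM.

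The top of the range was also set against deep middle cells, a comparison chosen after seeing the data, with 15 against 284 cells. Of 5296 genes, 698 (13.2%) were at least 2 times higher and 170 (3.21%) lower, with a median log2 ratio of 0.31. The genes with the highest ratios by the naming rule, after Bicc1 (92.1) and Spink1 (10.6), were Pkhd1 (9.01), the membrane adaptor Ank3 (7.75), the glucocorticoid carrier Serpina6 (7.72), the phagocytosis opsonin Mfge8 (7.64) and Shroom3 (6.09). Ank3 and Mfge8 were each detected in 14 of 15 cells. Bicc1, Ank3 and Mfge8 were at 1.24, 17.5 and 17.7 CPM in deep middle cells, under the minimum of 20 CPM. They passed through the top range alone and so had to be higher there. The lowest were Sult2a8 (0.13), Cps1 (0.14), the odorant-binding Obp2a (0.16), Cyp4a14 (0.20), Cyp4a10 (0.20), the adipokine-like Serpina12 (0.21), Apon (0.21), Ugt2a3 (0.21) and Hal (0.22), which starts histidine breakdown. Obp2a, at 17.4 CPM in the top range, passed through middle cells alone.

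Part of the lipid synthesis genes were lower at the top. Of 20 fatty acid and sterol synthesis genes, 19 passed, 8 were at least 2 times lower, 1 was higher (Sqle) and 10 were within 2 times. Over all genes of that comparison, 3.21% were lower and 13.2% higher. The list's median log2 ratio was -0.29. Scd1, the stearoyl-CoA desaturase, was at 4895 CPM (4706 to 5090) in the top range, 9392 CPM at 5 to 10, 10431 CPM in deep middle cells and 13448 CPM in deep comparison cells. Fasn, fatty acid synthase, was at 63.8, 247, 266 and 318 CPM in that order. In suffix 2, Scd1 was at 6986 CPM in members and 12516 CPM in deep comparison cells, and Fasn at 96.1 and 227 CPM. Between all deep members and deep comparison cells of suffix 1, 0 of 18 genes of the list were past 2 times either way. Scd1 (6420 CPM) and Fasn (139.8 CPM) were already lower at 10 to 20 than at 5 to 10.

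Major urinary protein genes encode pheromone carriers of male mouse liver. Of 17 genes on a list of these and other male-type genes, 9 passed at the top and 7 were at least 2 times lower. Of those 7, 4 (Mup1, Mup12, Cyp4a12a and C6) passed through middle cells alone, so the count supports nothing. Between all deep members and deep comparison cells, 5 of 10 were lower and 0 higher in suffix 1 (median log2 ratio -1.02) and 3 of 11 and 0 in suffix 2 (-0.57). Those 3, Mup1, Cyp4a12a and Elovl3, held 1, 2 and 1 UMIs in deep members of suffix 2 and passed through comparison cells alone, as did Mup1, Mup12 and Hsd3b5 among the 5 of suffix 1. Mup20 was at 17181 CPM in the top range, 32082 CPM at 10 to 20, 36261 CPM at 5 to 10 and 38347 CPM in deep middle cells; in suffix 2 it was at 16814 CPM in members and 16502 CPM in deep comparison cells. Mup3 was at 483 CPM in the top range and 1963 CPM in deep middle cells of suffix 1, and at 12920 and 10466 CPM in members and deep comparison cells of suffix 2. Mup1 and Mup12 belong to a group of near-identical copies that can share reads, so their single values are uncertain. Slc10a1, the sodium-dependent bile acid carrier, was at 69.6 CPM in the top range and 257 CPM in deep middle cells.

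C3, Cp and Vtn, 3 plasma protein genes, were singled out after their values were seen. C3, the central complement component, was at 3621 CPM (3459 to 3789) in the top range and 1442 CPM in deep middle cells, and in suffix 2 at 3487 CPM in members and 1804 CPM in deep comparison cells. Cp, the copper-carrying ferroxidase, was at 1143 and 469 CPM, and in suffix 2 at 1170 and 641 CPM. Vtn, the adhesive glycoprotein vitronectin, was at 2612 and 1330 CPM, and in suffix 2 at 2436 and 1380 CPM. Between deep members and deep comparison cells the ratios of C3, Cp and Vtn were 1.41, 1.61 and 1.67 in suffix 1 and 1.99, 1.84 and 1.80 in suffix 2, all under 2.

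The serum amyloid gene Saa1 was at 36.7 CPM in the top range, 766 CPM at 10 to 20 and 300 CPM at 5 to 10. Of 20 acute phase genes, 13 passed at the top, 3 were higher and 2 lower, where 13.2% and 3.21% of all genes were. Between all deep members and comparison cells, 2 of 15 were higher and 1 lower in suffix 1 and 2 of 16 and 1 in suffix 2. Hpx, the haem carrier, was at 2767 CPM in the top range and 2276 CPM in deep middle cells, and in suffix 2 at 8026 CPM in members and 3991 CPM in deep comparison cells.

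The 18 stress response genes summed to 2200.2 CPM in deep members and 2031 CPM in deep comparison cells of suffix 1 and to 2848 and 2804 CPM in suffix 2, and 0 of the 8 and 9 that passed were past 2 times. The 16 immediate early genes summed to 393 and 309 CPM and to 479 and 410.1 CPM, with 2 of 9 higher and 1 lower in suffix 1 and 0 of 9 past 2 times in suffix 2. At the top, 2 of 11 stress genes (Atf3 and Gdf15) and 3 of 11 immediate early genes (Atf3, Fos and Jun) were at least 2 times higher and 0 lower, where 13.2% of all genes were higher; Atf3 is on both lists. Jun was at 87.0 CPM against 19.3 CPM in deep middle cells and Atf3 at 21.3 CPM, which is 11 UMIs in 4 cells. The chemokine Cxcl1 was at 54.1 CPM (36.0 to 78.2) against 12.8 CPM, and the macrophage growth factor Csf1 at 23.2 CPM, 12 UMIs in 7 cells, against 1.61 CPM. Col4a1, a basement membrane collagen, was at 50.3 and 14.4 CPM. The cyclin Ccnd1 was at 59.9 and 2.10 CPM, and its 31 UMIs lay in 6 of 15 cells.

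Markers of division were low in suffix 1 and uneven in suffix 2. Mki67, the proliferation marker, had 4 UMIs in 4 of 115 members of suffix 1 and 1 UMI in 33 deep comparison cells. In suffix 2 it had 8 UMIs in 2 of 9 members (3 and 5) and 23 UMIs in 4 of 214 deep comparison cells. The 16 cell cycle genes summed to 66.4 CPM in deep members and 51.2 CPM in deep comparison cells of suffix 1, and to 158 and 67.0 CPM in suffix 2. Of these 16, 1 passed in each library: Pcna was within 2 times in suffix 1, and Ccnd1, with 6 UMIs, was higher in suffix 2. Of 10 osteopontin receptor genes, 3 passed and 0 were past 2 times in either library between deep cells, and Cd44 was at 5.71 CPM at 5 to 10 and 1.93 CPM in the top range. Of 16 hepatocyte transcription factors, 11 passed, and 0 were past 2 times in suffix 1 between deep cells and 1 was lower in suffix 2. Of 16 lipid droplet genes, 7 passed, with 1 lower in suffix 1 and 1 higher in suffix 2.

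Cebpa, the gene targeted in the knockout, was all but absent from both sets in suffix 1 and present in both in suffix 2. Members of suffix 1 held 3 UMIs in all (0.920 CPM) and comparison cells were at 2.30 CPM. In suffix 2, members were at 73.5 CPM (39.1 to 126; 13 UMIs in 6 of 9 cells) and deep comparison cells at 116 CPM. No genotype was assigned from these values. Cebpb was at 156, 158 and 124 CPM in the 3 ranges and 177 CPM in deep comparison cells of suffix 1. In suffix 2 it was at 73.5 CPM over all 9 members (13 UMIs) and 130 CPM in deep comparison cells. Of 7 genes on the C/EBP list, 3 passed in suffix 1 and 5 in suffix 2, and 0 of those that passed were past 2 times between deep cells. Cebpa did not pass in suffix 1, where deep members held 2 UMIs (0.633 CPM) and deep comparison cells 3 UMIs (4.04 CPM).

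Markers of other cells in the gate were low in summed CPM, and some were higher in comparison cells. Most cells still held some: in suffix 1, 97 of 115 members held a macrophage marker UMI and 114 an erythroid one. Among 33 deep comparison cells, 25 and 32 did. All 9 macrophage markers together were at 95.4 CPM in members of suffix 1 and 146 CPM in deep comparison cells, against 7446 CPM in immune barcodes, with 0 of 9 markers at 0. In suffix 2 the sums were 62.2 and 116 CPM, with 3 of 9 at 0. The 6 endothelial markers summed to 8.28 and 20.2 CPM and the 6 stellate markers to 6.13 and 8.08 CPM in suffix 1. The 5 erythroid markers were at 279 CPM in members, 249 CPM in deep and 3773 CPM in all comparison cells of suffix 1. The sums of T and NK cell, B cell and neutrophil markers were each at most 14.7 CPM in members of either library. Their part in the results was not tested. Of the barcode sequences, 81 occurred in both libraries, 2 of them in members.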

How the data were processed

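The authors deposited 1 matrix of raw counts (UMIs per gene and barcode; 32285 genes) for both samples. The submitters' processing notes name Cell Ranger 7.1.0, bcl2fastq 2.20.0, STAR 2.7.2a and mm10. Barcodes were not filtered further, doublets were not removed, and depth per member ran from 5066 to 58512 UMIs in suffix 1 and from 5324 to 29593 in suffix 2. Members and gene lists (27 lists, 331 genes) were chosen with earlier results of these data known. Sums of UMIs per set were divided by the set's total (CPM) with Python 3.11.15, NumPy 2.4.6 and SciPy 1.17.1. Genes compared had at least 20 CPM in either set and UMIs in at least 10 cells. A sum of 0 was set to 3 UMIs in ratios. Named genes were those of the lists, and the 8 highest and 8 lowest per library and up to 10 in both, among genes at 100 CPM or more in 10% of cells, after leaving out in each set the cell with most UMIs of the gene. Gate genes, mt- genes and markers of other cell types were left out of that ranking. Against middle cells, 12 each way were ranked. Spp1 ranges, deep cells, and the biliary, immune and lymphoid barcodes were defined after seeing the data. The calculation was checked on simulated Poisson counts without cell-to-cell variation in profile, and a minimum recovery was required in suffix 1 only.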

Additional observations from a re-analysis of the deposited data

Results flagged for a closer look

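Spp1 also appeared in barcodes that met every other gate condition but exceeded 25% mitochondrial UMIs, which the comparisons did not use. There it was at 292 CPM (95% interval 261 to 326; 78 barcodes) in suffix 1 and 30.6 CPM (24.7 to 37.6; 353 barcodes) in suffix 2, and was picked out only because it exceeds what a count of 0 allows. Immune barcodes (at least 3 Ptprc UMIs) were at 386 CPM (372 to 400) in suffix 1, a value carried by 13 of 773 barcodes at 5 or more per 10000: the other 760 were at 63.9 CPM (58.4 to 69.9). In suffix 2 all 718 were at 11.2 CPM. Gate cells were at 691 and 71.2 CPM. Of these barcodes, 7 of 78 (8.97%) and 3 of 353 (0.850%) reached 5 Spp1 UMIs per 10000 with 0 UMIs of Epcam, Krt7 and Krt19.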

How the results depend on the processing

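No paired analysis was possible because each group had 1 sample and the columns carried no sample name. The share of members in suffix 1 was 22.9% at 10000 UMIs or more, 5.65% at 10 Spp1 UMIs per 10000 and 4.65% (2 of 43 cells) with at most 1 UMI of other cell types; 4 other gates left it within its interval, as did all 7 in suffix 2. The count of higher genes in suffix 1 (258) was 856 with a 15% mitochondrial limit, 159 at 10000 UMIs, 544 at 10 Spp1 UMIs per 10000, 467 against cells at 0 Spp1 UMIs, 44 against all other gate cells, 147 with depth matching, 765 thinned, 630 as means over cells, 404 without mt- genes in totals, 448 with no minimum and 165 without the 15 highest members. The count of lower genes (213) was 624 at 15%, 90 at 10000 UMIs, 474 with few UMIs of other cell types, 367 against cells at 0, 19 against all others, 89 depth-matched, 756 thinned, 544 as means, 1970 with no minimum and 87 between deep cells. In suffix 2 the higher count (785) was 1200 at 10 Spp1 UMIs per 10000, 1644 with the wider biliary exclusion, 1861 with few UMIs of other cell types, 184 depth-matched, 2149 thinned and 11069 with no minimum; the lower count (334) was 535 at 15% mitochondrial UMIs, 523 with few UMIs of other cell types, 122 depth-matched, 35 with no minimum and 540 without the top range. The deep cells and the exclusion of the top range were chosen after seeing the data. The cause of these shifts was not tested, but the 2 cells left per library with few UMIs of other cell types, and the 9 depth-matched comparison cells of suffix 2, are few. With no minimum, 3 UMIs added to unequal totals favour the smaller set.

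Of the 21 named genes at a ratio of 2 or more in suffix 1, 21 stayed above 1 under every setting, but only 11 stayed at 2 or more against all other gate cells, 15 between deep cells or with the wider biliary exclusion, and 16 without the top range. Of the 15 at 0.5 or less, 7 stayed there against all other gate cells, 7 between deep cells, 14 with the wider biliary exclusion and 15 without the top range. Ratios past 2 times that crossed 1 were those of AY036118 (1.09), Fabp2 (1.05) and Etfb (1.54) between deep cells of suffix 1, Tmsb4x (1.03) there against all other gate cells, and, with few UMIs of other cell types, Wfdc21 (1.77), Slco1b2 (1.47), Slco1a1 (5.30) and Tmsb4x (2.04) in suffix 1 and Cyp4a14 (1.21) and Tmsb4x (1.36) in suffix 2. In suffix 2, Sox9 was at 0.61 at 10 Spp1 UMIs per 10000, and Tff3 at 1.25 without the biliary exclusion and at 1.57 when thinned. Among named genes with smaller ratios, Cyp8b1 of suffix 1 (1.17 to 0.69) and AY036118 (0.64 to 1.43) and Cmss1 (0.80 to 1.75) of suffix 2 crossed 1 between deep cells. In suffix 2 low genes rest on few UMIs, since its 9 members hold 176936 in all.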
